A study of Mus musculus with 6 samples.

Results

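Markers of alternative activation of macrophages were followed in bone marrow-derived macrophages (BMMs) with and without cartilage fragments. They are 8 genes, Mrc1, Chil3, Retnla, Mgl2, Clec10a, Cd163, Il4ra and Pparg, taken by symbol out of the 24394 gene symbols that the 6 libraries list. RNA-seq had been made from 3 control libraries and from 3 libraries of macrophages stimulated with cartilage fragments at 5 fragments per macrophage for 24 h. All cells came from wild type C57BL/6 mice at postnatal day 28 and had been grown from marrow monocytes for 7 days in macrophage colony-stimulating factor (M-CSF, 50 ng/ml), which both groups share. The fragments had been crushed from femoral head cartilage of the mice that gave the marrow. No interleukin-4 (IL-4) arm is among the libraries, so the values hold no reference for a fully induced marker. Nothing in the labels says that the replicates came from separate mice or cultures, and p-values then measure only the spread between these samples, which may be technical. The Methods name male mice, while Xist was listed at 19.8 to 23.6 FPKM in all 6 libraries and Ddx3y, Eif2s3y, Kdm5d and Uty at 0.

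Alternative activation is the state that macrophages enter under IL-4 and IL-13, cytokines of type 2 immunity and of wound repair. Both cytokines bind receptors that contain the Il4ra chain, Janus kinases then phosphorylate STAT6, and STAT6 turns on genes such as Chil3, Retnla, Mgl2, Clec10a and Mrc1. The nuclear receptor PPARG acts beside STAT6 and ties this state to fatty acid metabolism, whereas Cd163, the scavenger receptor for haptoglobin-haemoglobin complexes, is known more for its induction by glucocorticoids and IL-10. In joints, macrophages of this kind are studied for their part in the resolution of synovitis.

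The deposited values are FPKM, fragment numbers divided by transcript length and by sequencing depth, so that levels of different genes can be compared per length. From the coverage listed beside each FPKM, the control libraries held an estimated 743000 to 776000 fragments and the stimulated libraries 699000 to 754000. This is far below the read number that the Methods give, and whether the deposited values rest on a part of the reads could not be told, so every fragment number here is one recovered from the files. Macrophage markers were present in every library, with Csf1r, the M-CSF receptor, at 569 to 639 FPKM in controls and 565 to 670 FPKM after stimulation, and the 5 T and B cell markers searched were at 0 in all 6. Adgre1, which encodes the macrophage protein F4/80, was 350 to 373 FPKM in controls and 524 to 566 FPKM in stimulated macrophages (limma adjusted p = 0.00965), so a macrophage marker itself moved with the stimulation. That p was 0.0221 to 0.0827 with 1 library left out and missed the threshold without stimulated replicate 1 or stimulated replicate 2, and it was also missed with eBayes without trend and robust (0.340), with a replicate block (0.0585) and from reference transcripts only (0.620). In bulk RNA, fewer cells of a type and less RNA per cell cannot be told apart. Groups were compared with limma on log2(FPKM + 0.1), with p adjusted over the 10393 genes whose mean was at least 1 FPKM. Fold changes are on this scale. For weakly expressed genes with libraries at 0 it can depart from the ratio of fragments per depth in either direction. Arg1 had a fold of 24.1 against a fragment ratio of 9.94, and Cd163, without the filter, 3.55 against 8.37.

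The 8 markers fell into 3 that were plainly expressed, 2 that were low and 3 that rested on a few fragments, and none separated the groups. Mrc1, Il4ra and Chil3 together held 88.6% to 93.3% of the summed FPKM of the 8 markers in each library, and Mrc1 alone 42.1% to 46.8%. The summed level was 168, 162 and 196 FPKM in the control libraries and 167, 165 and 171 FPKM in the stimulated ones, so the groups overlapped. Of the 8 markers, 6 reached the mean of 1 FPKM and were tested. Limma called 0 of them, where 0.366% of all tested genes were called, 0.308% higher and 0.0577% lower, and 0 had an unadjusted p under 0.05, where 9.19% of all tested genes did. Limma on fragments scaled to the depth of each library also called 0, where it called 2.49% of all tested genes (1.64% higher and 0.856% lower), with 0 at an unadjusted p under 0.05 beside 11.6% of all. In none of the 8 markers did the 3 stimulated libraries all lie on one side of the 3 controls, which was so in 15.9% of the tested genes. With 6 or 8 genes, counts of 0 lie near these shares and are no result about the markers as a set. Their median log2 fold change was -0.03, beside 0.00365 over all tested genes, with 3 of the 6 above 0, and over the alternatives tried it ran from -0.20 to 0.06.

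**Figure D1:**
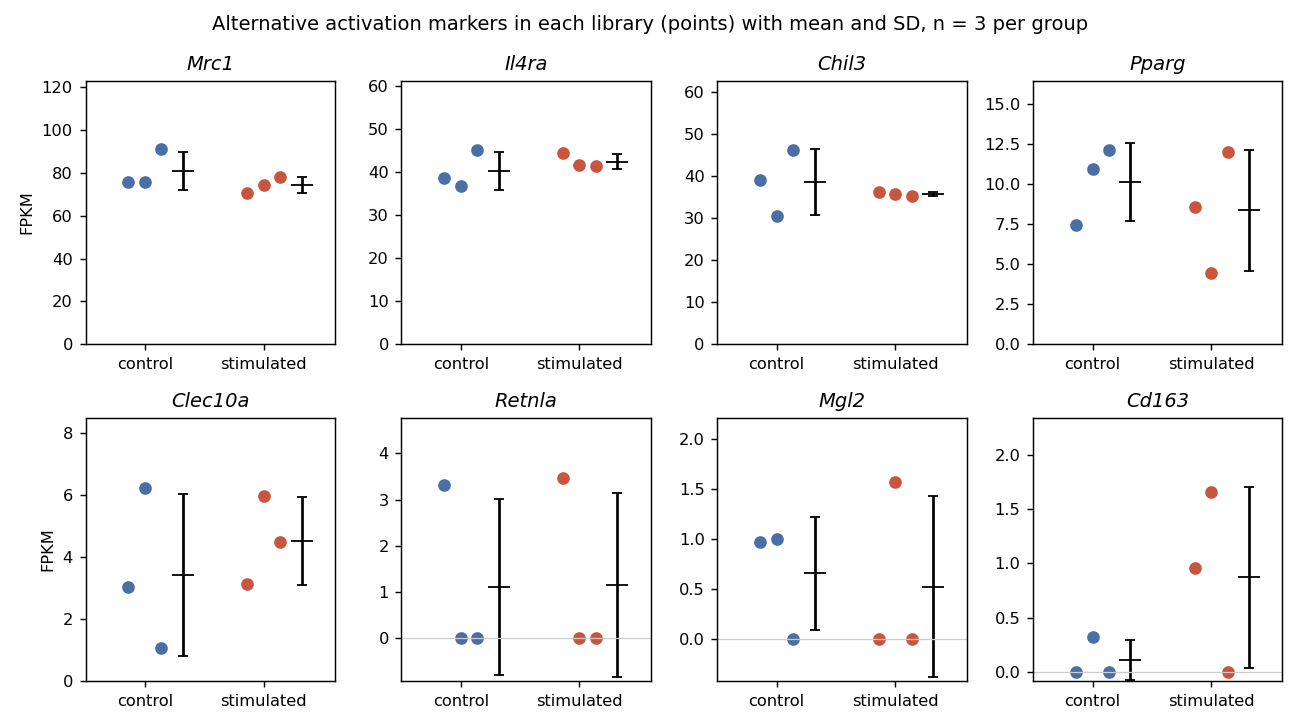
FPKM of each of the 8 markers (vertical axis, linear, with its own scale in each panel) in the control (blue) and stimulated (red) libraries, each point 1 library, with the mean and SD of the group beside it (n = 3). The groups overlap in every panel, and Retnla, Mgl2 and Cd163 are at 0 in 3 or more of the 6 libraries, where an SD bar can reach below 0.

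Il4ra encodes the receptor chain that IL-4 and IL-13 share (chr7:125552282-125579474 on mm10, plus strand, 11 exons). It was listed at 38.7, 36.9 and 45.3 FPKM in the control libraries and at 44.4, 41.8 and 41.4 FPKM in the stimulated libraries. All 3 stimulated values lay inside the range of the controls. The means were 40.3 ± 4.44 and 42.5 ± 1.66 FPKM (SD, n = 3), a fold of 1.06 with a 95% interval of 0.852 to 1.32 (limma adjusted p = 0.883). These values rest on 451 and 452 estimated fragments per group.

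Downstream of and beside Il4ra, a list of 22 genes of IL-4 and IL-13 signalling, Il4ra among them, had 16 tested genes. None was called from FPKM, and 1 was called higher and 0 lower from scaled fragments. Over all tested genes 0.308% were called higher and 0.0577% lower from FPKM, and 1.64% and 0.856% from scaled fragments. The calls in each list below stand beside these shares. The median log2 fold change of the tested genes was 0.09, and 5 genes lay wholly higher in the stimulated libraries and 0 wholly lower, where 9.04% and 6.89% of all tested genes did. The gene called from scaled fragments was Il2rg, the common gamma chain that pairs with Il4ra in the type I receptor. Its values were 39.8, 42.3 and 27.0 FPKM in controls and 80.2, 80.8 and 63.5 FPKM after stimulation, with no overlap. The log2 fold change was 1.06 with an adjusted p of 0.102 from limma on FPKM and 0.000182 from limma on scaled fragments. Il2rg is shared with the receptors of several other interleukins.

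The partner in the type II receptor, Il13ra1, was at 6.94 ± 0.988 FPKM in controls and 6.45 ± 1.36 FPKM in stimulated macrophages (SD, n = 3; log2 fold change -0.11, limma adjusted p = 0.922). Stat6 was listed at 129, 165 and 123 FPKM against 119, 115 and 127 FPKM, with overlapping groups and a log2 fold change of -0.20 (limma adjusted p = 0.681). Ptpn6, the phosphatase SHP-1 and the highest gene of the list, was at 119 ± 7.46 and 153 ± 5.68 FPKM (SD, n = 3) without overlap, and its adjusted p was 0.186 from limma on FPKM and 0.128 on scaled fragments. Of the Janus kinases, Jak1 was at 69.4 ± 7.36 and 70.8 ± 3.898 FPKM (SD, n = 3; limma adjusted p = 0.958), with a sign that turned under 2 other scalings, and Jak2 and Jak3 lay wholly higher with log2 fold changes of 0.42 and 0.89 (limma adjusted p = 0.584 and 0.515). The cytokines Il4 and Il13 themselves were listed at 0 in all 6 libraries, which allows up to 3 fragments in each.

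Mrc1, the mannose receptor CD206 that takes up glycoproteins and collagen peptides, was the highest of the 8 markers (chr2:14229414-14332023, plus strand, 30 exons). The 3 control libraries were at 75.5, 75.7 and 90.9 FPKM and the 3 stimulated libraries at 70.5, 74.1 and 78.0 FPKM. The stimulated range reached into that of the controls, whose replicate 3 was the highest of all 6 libraries. Means were 80.7 ± 8.81 and 74.2 ± 3.74 FPKM (SD, n = 3), a fold of 0.922 with a 95% interval of 0.765 to 1.11 (log2 fold change -0.12, standard error 0.117, limma adjusted p = 0.804). At 937 and 823 estimated fragments per group Mrc1 was the most deeply read of the markers. From scaled fragments its interval was narrower, 0.820 to 1.03 (limma adjusted p = 0.656).

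The level of Mrc1 and Il4ra depended on which Cufflinks lines of the locus were added. In control replicate 1 the line with the symbol Mrc1 held 48.4 FPKM, and a transcript that Cufflinks had assembled over the same bases, with no symbol, held another 27.2 FPKM. Without that line the control mean of Mrc1 was 71.7 ± 21.6 FPKM (SD, n = 3) and the fold was 1.07, with a 95% interval of 0.709 to 1.61, so the direction turned. For Il4ra the assembled lines held 12.9 FPKM in control replicate 1 and 6.09 FPKM in stimulated replicate 3, and without them the log2 fold change was 0.20 in place of 0.08. The other 6 markers carried no assembled line. All values of Mrc1 and Il4ra given above include these lines.

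**Figure D2:**
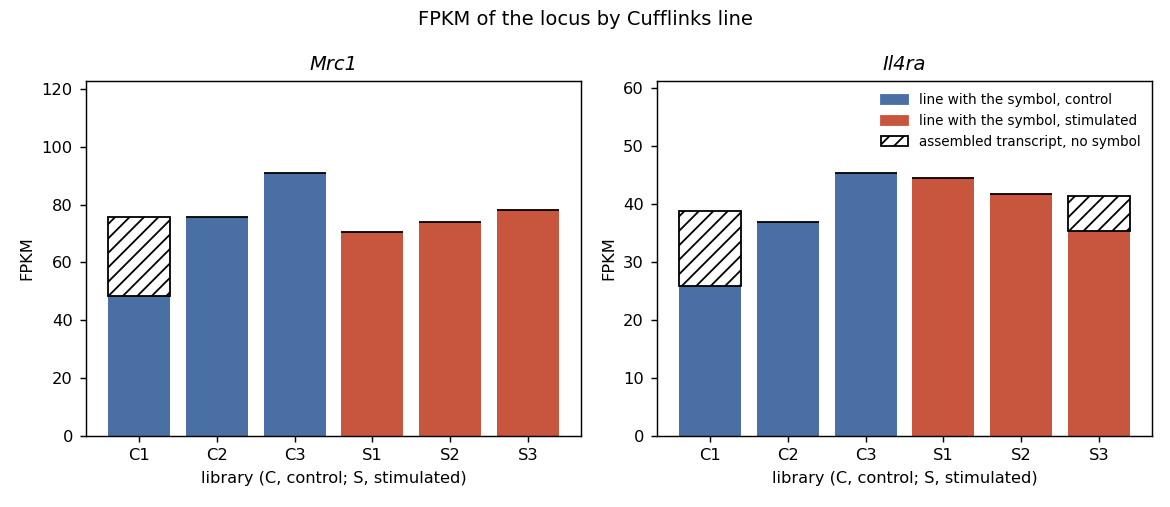
FPKM at the Mrc1 and Il4ra loci in each library (C, control; S, stimulated), with the line that carries the symbol as a solid bar and assembled transcripts without a symbol as the hatched part on top. The hatched parts are 27.2 FPKM for Mrc1 and 12.9 FPKM for Il4ra in C1, and 6.09 FPKM for Il4ra in S3, and with them the libraries of each gene lie closer together.

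Clec10a and Mgl2 encode macrophage galactose-type lectins, C-type lectins that bind terminal galactose and N-acetylgalactosamine, and lie side by side on chromosome 11 (Clec10a chr11:70166623-70170836 and Mgl2 chr11:70130357-70137542, plus strand, 10 exons each). Clec10a was listed at 3.01, 6.21 and 1.05 FPKM in controls and at 3.12, 5.96 and 4.47 FPKM after stimulation. The control libraries held both the lowest and the highest value. The fold was 1.58 with a 95% interval of 0.598 to 4.18 (limma adjusted p = 0.789), on 10 and 13 estimated fragments per group. Its log2 fold change of 0.66 was 0.011 without control replicate 3 and 1.24 without control replicate 2.

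Mgl2 was listed at 0.966, 0.996 and 0 FPKM in controls and at 0, 1.56 and 0 FPKM in stimulated macrophages, an estimated 2.01 and 1.505 fragments, and was under the mean needed for a test. Rounded to 2 fragments in each group, the ratio per depth had a counting interval of 0.0758 to 14.4. Without a filter on low values the log2 fold change was -0.94 (standard error 1.45, limma adjusted p = 0.854). The transcripts of Mgl2 and Clec10a are 93.9% identical over 830 aligned bases, so reads of one could be counted for the other. In stimulated replicate 2 neither estimate was a whole number, with 1.505 fragments for Mgl2 and 5.52 for Clec10a. Both lectins are therefore uncertain as separate values.

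Cd163 (chr6:124304651-124330527, plus strand, 17 exons) was listed at 0, 0.318 and 0 FPKM in controls and at 0.957, 1.66 and 0 FPKM in stimulated macrophages. These values stand for 1 fragment in the controls and for 3.03 and 5.03 fragments in stimulated replicates 1 and 2, while stimulated replicate 3 had none. The ratio of the pooled fragments per depth was 8.37 with a counting interval of 1.12 to 371, which covers counting error only and not the spread between libraries. Without a filter on low values the log2 fold change was 1.83 (standard error 1.28, limma adjusted p = 0.788), and the groups overlapped through the stimulated library at 0.

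The ligand side of Cd163 gave clearer values. In a list of 16 genes of haptoglobin and haem handling, of which 15 were found and 14 tested, 1 was called higher from FPKM and 0 lower, and 2 were higher from scaled fragments. The median log2 fold change was 0.09. Wholly higher were 4 genes and wholly lower 1, beside 9.04% and 6.89% of all tested genes. Hp, which encodes haptoglobin, was listed at 27.4, 28.2 and 15.5 FPKM in controls and at 162, 172 and 122 FPKM after stimulation, so that all stimulated libraries exceeded all controls. Hp rose by 2.71 on the log2 scale (standard error 0.249, limma adjusted p = 0.00411), with an adjusted p of 0.0539 without stimulated replicate 1 and of 0.0700 with plain eBayes (no trend, not robust).

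Hmox1, the haem oxygenase that degrades haem taken up with haemoglobin, was at 551 ± 30.2 and 584 ± 11.7 FPKM (SD, n = 3; log2 fold change 0.09, limma adjusted p = 0.715). Ftl1, the ferritin light chain and the highest gene of this list, had a log2 fold change of 0.08 (limma adjusted p = 0.448). Fth1, the ferritin heavy chain, was called higher from scaled fragments with a log2 fold change of 0.14 (limma adjusted p = 0.000266) but not from FPKM, where it was 0.27 (adjusted p = 0.771). With lines of the status OK only its log2 fold change was -0.18. Spic, a transcription factor of macrophages that recycle red cells, was listed at 0, 2.53 and 3.84 FPKM in controls and at 10.2, 7.95 and 5.46 FPKM after stimulation (limma adjusted p = 0.573).

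Because Cd163 is known for its response to glucocorticoids and IL-10, a list of 17 genes of that response was followed, of which 14 were tested. From FPKM 2 were called higher, Marco and Socs3, and 0 lower. From scaled fragments 4 were called higher, with Bcl3 and C1qa added, and 0 lower. The median log2 fold change was 0.12, with 6 genes wholly higher and 0 wholly lower, beside 9.04% and 6.89% of all tested genes. Marco, a scavenger receptor for particles, was listed at 18.3, 32.3 and 26.7 FPKM in controls and at 409, 415 and 350 FPKM in stimulated macrophages, with a log2 fold change of 3.95 (limma adjusted p = 0.000213). Socs3, an inhibitor of cytokine signalling that the list of classical activation also holds, was at 4.24 ± 1.48 and 16.6 ± 1.97 FPKM (SD, n = 3; log2 fold change 1.98, limma adjusted p = 0.0322), and with a library left out that p lay between 0.0198 and 0.202 and passed only without control replicate 3. Bcl3, a nuclear IκB protein, had a log2 fold change of 0.95 (limma adjusted p = 0.103 on FPKM and 0.00893 on scaled fragments).

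C1qa, a chain of complement C1q, was at 82.5 ± 11.8 and 129 ± 14.9 FPKM (SD, n = 3; limma adjusted p = 0.129 on FPKM and 0.0132 on scaled fragments). Of the other genes of the list, 5 that glucocorticoids are known to induce, chosen after their values were seen, were tested and called in neither fit. Fkbp5 lay wholly higher, at 0.841 ± 0.915 and 2.28 ± 0.0850 FPKM (SD, n = 3), on 7 and 18 fragments (limma adjusted p = 0.627). Tsc22d3 (GILZ) had a log2 fold change of -0.02 (limma adjusted p = 0.984), Per1 of -0.36 (adjusted p = 0.790), Dusp1 of -0.36 (adjusted p = 0.779), and Sgk1, the highest gene of the list, of -0.11 (adjusted p = 0.711). Zbtb16 was under the mean needed for a test. Il10 rested on 3 fragments per group.

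Chil3, also called Ym1, encodes a secreted chitinase-like lectin (chr3:106147554-106167564, minus strand, 11 exons). The control libraries were at 39.0, 30.6 and 46.3 FPKM and the stimulated libraries at 36.3, 35.7 and 35.3 FPKM. All 3 stimulated values lay between the lowest and the highest control, and they were much closer to each other, with a coefficient of variation of 1.46% against 20.3% in controls. The means were 38.6 ± 7.85 and 35.8 ± 0.521 FPKM (SD, n = 3), a fold of 0.939 with a 95% interval of 0.712 to 1.24 (limma adjusted p = 0.903) on 117 and 103 fragments. Each library held 30.8 to 45.7 estimated fragments, for which counting error alone exceeds 1.46%. Whether the spread differed between the groups was not tested. Its paralog Chil4 (Ym2), 94.3% identical over 1540 bases, was listed at 1.56 FPKM or less in every library, and how reads that match both genes were divided is not given.

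Retnla, or Fizz1, encodes a small secreted cysteine-rich protein and is one of the genes most strongly induced by IL-4 (chr16:48842552-48844461, plus strand, 4 exons). It was listed at 3.30 FPKM in control replicate 1, at 3.46 FPKM in stimulated replicate 1 and at 0 in the other 4 libraries. Each of these values is 1 fragment of a transcript of 598 bases, and a library at 0 allows up to 3. The ratio was 1.05 with a counting interval of 0.0133 to 82.1, and the 95% interval of the fold from limma was 0.0146 to 70.7 (adjusted p = 0.998). These intervals span falls and rises of many fold alike. Its relative Retnlg ranged from 0 to 20.1 FPKM in controls and from 0 to 28.9 FPKM in stimulated libraries.

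The promoters of the markers were read for the palindrome of STAT6, TTC and GAA with any 4 bases between, which reads the same on both strands. RefSeq (GRCm38.p6) gave 9 windows of the 250 bases before a start for 7 of the 8 markers, and 1 of the 9 held the palindrome, beside 5.85% of 32851 promoters. It was that of Retnla, where the match begins 145 bases before the start as RefSeq places it. The deposited Retnla transcript begins further upstream, at 48842552, so the end of this window lies within it and the match is nearer to that start. The Retnla window is shown with the match in capitals, and the window of Mrc1, the highest marker, beside it as one without a match. A match describes the letters only, and its absence says nothing on binding elsewhere.
Retnla chr16:48842359-48842608, plus strand: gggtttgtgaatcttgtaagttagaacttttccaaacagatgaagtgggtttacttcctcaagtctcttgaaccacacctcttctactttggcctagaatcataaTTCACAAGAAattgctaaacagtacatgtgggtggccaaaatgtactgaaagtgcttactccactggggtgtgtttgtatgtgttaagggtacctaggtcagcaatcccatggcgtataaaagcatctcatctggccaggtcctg
Mrc1 chr2:14229164-14229413, plus strand: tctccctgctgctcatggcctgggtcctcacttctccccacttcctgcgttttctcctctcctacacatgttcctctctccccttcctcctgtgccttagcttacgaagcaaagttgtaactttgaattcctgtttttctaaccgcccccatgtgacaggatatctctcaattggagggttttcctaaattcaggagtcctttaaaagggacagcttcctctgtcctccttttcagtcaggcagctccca

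Besides Chil3 and Retnla, a list of 24 other genes of alternative activation was described, of which 23 were found and 12 tested. From FPKM 0 were called in either direction, and from scaled fragments 3 were called higher and 1 lower. The median log2 fold change was 0.17. Wholly higher were 4 genes and wholly lower 1, beside 9.04% and 6.89% of all tested genes. Of the listed genes, 4 were at 0 in all libraries, among them the chemokines Ccl17 and Ccl24. Arg1, arginase of the urea cycle and a hallmark of this state in mouse, was listed at 0, 0 and 2.14 FPKM in controls and at 7.40, 4.41 and 9.10 FPKM in stimulated macrophages. Every stimulated library exceeded every control, on 2 fragments against 19, a ratio of 9.94 with a counting interval of 2.40 to 88.0. The adjusted p of Arg1 was 0.252 from limma on FPKM and 0.0363 on scaled fragments.

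Tgm2, transglutaminase 2, was at 41.1 ± 3.22 and 58.9 ± 5.73 FPKM (SD, n = 3), with a log2 fold change of 0.52 (limma adjusted p = 0.222 on FPKM and 0.00688 on scaled fragments). Il1rn, the antagonist of the IL-1 receptor, was at 4.61 ± 1.28 and 10.5 ± 0.861 FPKM (SD, n = 3; limma adjusted p = 0.133 on FPKM and 0.0490 on scaled fragments). Mmp12, macrophage elastase and the highest gene of the list, went the other way. It was listed at 604, 593 and 681 FPKM in controls and at 465, 475 and 504 FPKM after stimulation, with no overlap, and a log2 fold change of -0.38 (limma adjusted p = 0.102 on FPKM and 8.37e-06 on scaled fragments). Tgm2 and Il1rn rise in other states of activation as well.

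**Figure D3:**
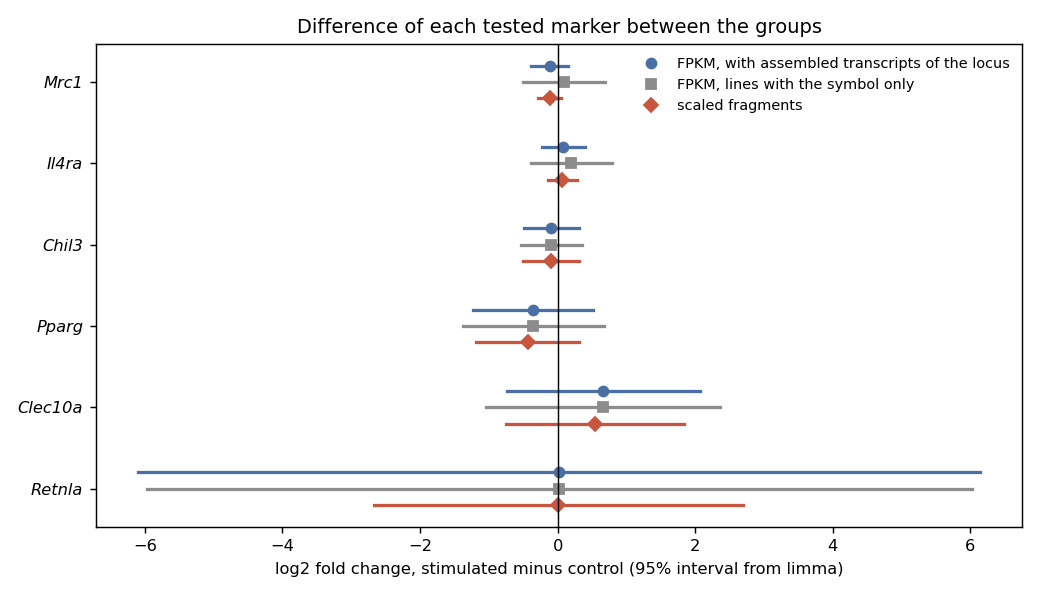
Log2 fold change (stimulated minus control) of the 6 tested markers with its 95% interval from limma, from FPKM with assembled transcripts (blue circles), from lines with the symbol only (grey squares) and from scaled fragments (red diamonds). Every interval contains 0, from that of Mrc1 on scaled fragments (folds of 0.820 to 1.03) to that of Retnla on FPKM (0.0146 to 70.7).

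Pparg encodes the fatty acid-activated nuclear receptor PPARG (chr6:115360951-115490401, plus strand). It was listed at 7.43, 10.9 and 12.1 FPKM in controls and at 8.59, 4.48 and 12.025 FPKM in stimulated macrophages. The lowest value was that of stimulated replicate 2, and the other 2 stimulated libraries lay within the control range. Means were 10.2 ± 2.43 and 8.37 ± 3.78 FPKM (SD, n = 3), a fold of 0.781 with a 95% interval of 0.428 to 1.42 (log2 fold change -0.36, standard error 0.377, limma adjusted p = 0.811), on 38 and 28 fragments. Without stimulated replicate 2 the log2 fold change was 0.03.

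The files list 4 Pparg transcripts, 3 that begin at upstream starts between positions 115360951 and 115362349 of chromosome 6 and 1 that begins at 115422066. The downstream start is that of the transcript for the longer, gamma 2 protein, best known from fat cells, and all 4 share most of their exons. The downstream transcript held 48.4%, 0% and 67.0% of the Pparg FPKM in the control libraries and 100%, 89.1% and 100% in the stimulated libraries. In fragments this was 4.35 of 10.1, 0 of 13.1 and 9.39 of 15.1 in controls, and 10.1 of 10.1, 4.47 of 5.02 and 13.1 of 13.1 after stimulation. The 2 groups did not overlap in this share. Summed FPKM did not overlap in 15.9% of the tested genes, and how often shares of transcripts do not was not computed. Cufflinks divided 5.02 to 15.1 fragments per library among transcripts that differ mainly at the 5′ end, and in its own 95% bounds the downstream transcript reached from 0 to 8.10 FPKM in control replicate 1 and from 0 to 8.07 FPKM in stimulated replicate 2. The share was chosen after the values were seen and was not tested.

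**Figure D4:**
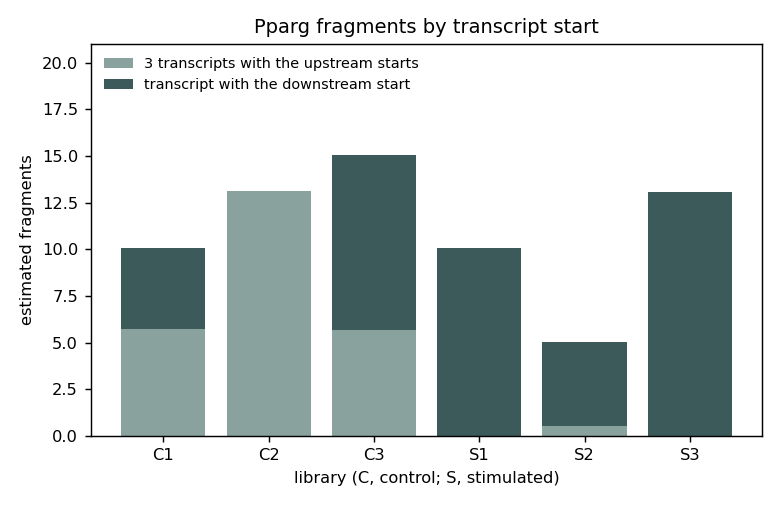
Estimated Pparg fragments in each library (C, control; S, stimulated), stacked by transcript start. The 3 transcripts with upstream starts (light) hold 5.71, 13.1 and 5.69 fragments in the controls and 0, 0.551 and 0 in the stimulated libraries, and the transcript with the downstream start (dark) holds the rest.

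The windows of 250 bases before an upstream and before the downstream start of Pparg differ in base composition, with 82.4% G and C before the start at 115361144, to which all Pparg fragments of control replicate 2 were assigned, and 40.8% before the start at 115422066, beside a median of 52.4% over all promoters. Neither held the palindrome. They are shown as the bases before these 2 starts, and most of the upstream window lies within the transcript that begins at 115360951.
Pparg upstream start, chr6:115360894-115361143, plus strand: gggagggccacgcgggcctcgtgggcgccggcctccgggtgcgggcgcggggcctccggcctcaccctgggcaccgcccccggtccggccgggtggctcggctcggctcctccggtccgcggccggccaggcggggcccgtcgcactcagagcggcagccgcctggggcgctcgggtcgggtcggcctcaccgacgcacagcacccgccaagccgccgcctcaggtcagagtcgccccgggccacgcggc
Pparg downstream start, chr6:115421816-115422065, plus strand: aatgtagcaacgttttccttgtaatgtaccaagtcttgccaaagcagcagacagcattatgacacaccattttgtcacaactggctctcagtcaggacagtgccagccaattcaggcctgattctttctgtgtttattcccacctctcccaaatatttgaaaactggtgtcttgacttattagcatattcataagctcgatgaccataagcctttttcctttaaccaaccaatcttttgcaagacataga

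A list of 22 partners and targets of PPARG had 18 tested genes, of which 1 was called higher and 1 lower from FPKM, and 1 higher and 2 lower from scaled fragments. The median log2 fold change was -0.11, with 12 of 18 below 0. Wholly higher were 2 genes and wholly lower 3, beside 9.04% and 6.89% of all tested genes. Fabp5, a fatty acid-binding protein and the highest gene of the list, was listed at 1412, 1538 and 1495 FPKM in controls and at 1186, 1188 and 1205 FPKM in stimulated macrophages. It fell by 0.31 on the log2 scale (limma adjusted p = 0.0388), and the call was lost whichever of the 6 libraries was left out (adjusted p 0.0622 to 0.233). Acsl1, which activates long-chain fatty acids, increased from 17.3 ± 2.74 to 43.0 ± 5.27 FPKM (SD, n = 3), with a log2 fold change of 1.31 (limma adjusted p = 0.0304, 0.0470 to 0.175 with a library left out, and past the threshold only without control replicate 1).

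Plin2, a coat protein of lipid droplets, was at 610 ± 4.11 and 487 ± 26.8 FPKM (SD, n = 3) without overlap (log2 fold change -0.32, limma adjusted p = 0.1005 on FPKM and 0.000286 on scaled fragments), and from reference transcripts only its log2 fold change was 0.21. The partner Rxra had a log2 fold change of -0.19 (limma adjusted p = 0.702), and the scavenger receptor Cd36 one of -0.13 (adjusted p = 0.681). Fabp4, a target widely used to read PPARG activity, was at 160 ± 30.8 and 128 ± 7.41 FPKM (SD, n = 3; limma adjusted p = 0.576).

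For contrast, a list of 20 genes of classical activation, the state induced by microbial products and interferon-gamma, had 14 tested genes and a median log2 fold change of 1.37. With the filter raised to 5 FPKM that median was 0.56 and the median of the markers -0.10, while the list had 1.00 with a pseudocount of 1 and 0.88 without control replicate 3. Of the 14 genes, 3 were called higher from FPKM, Il1b, Ccl5 and Socs3, and 0 lower, and from scaled fragments Tnf, Il1b and Socs3 were. Wholly higher were 7 genes and wholly lower 2, beside 9.04% and 6.89% of all tested genes. Il1b was at 2.38 ± 0.0534 and 15.0 ± 0.544 FPKM (SD, n = 3; log2 fold change 2.60, limma adjusted p = 0.00283). These values rest on 6 and 36 estimated fragments per group, with 2.01, 2.02 and 2.01 in the control libraries. The small SDs are thus those of nearly equal low counts and do not show precise expression. The paper's own text describes IL-1β as not upregulated after stimulation. Ccl5, on 7 and 28 fragments per group, had a log2 fold change of 2.04 (adjusted p = 0.0305, 0.0221 to 0.199 with a library left out, and lost without control replicate 1 or 2 or stimulated replicate 1 or 2), and Tnf one of 1.76 (limma adjusted p = 0.0818 on FPKM and 4.31e-05 on scaled fragments). Irf5, the highest gene of the list, had one of -0.16 (adjusted p = 0.640), which was 0.49 from reference transcripts only. Nos2 and Il6 were at 0 in all 6 libraries. The difference between this list and the markers was not tested.

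**Figure D5:**
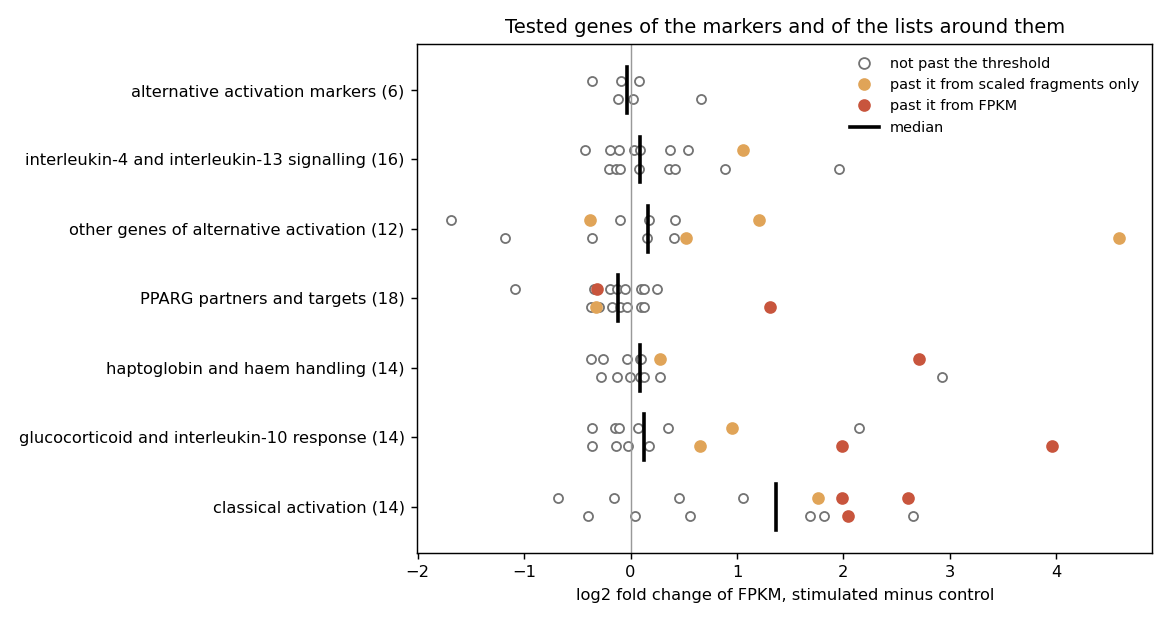
Log2 fold change of FPKM (stimulated minus control) of each tested gene of the 8 markers and of 6 lists around them, with the number of tested genes in brackets, filled points for genes past the threshold and a bar at the median. None of the 6 tested markers is filled and their median is -0.03, while the classical activation list has a median of 1.37, or 0.56 among its genes of at least 5 FPKM.

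In order of mean level over the 6 libraries the markers ran Mrc1 (77.5 FPKM), Il4ra (41.4), Chil3 (37.2), Pparg (9.26), Clec10a (3.97), Retnla (1.13), Mgl2 (0.588) and Cd163 (0.490). Mrc1 exceeded Il4ra in all 6 libraries with no overlap, and Chil3 exceeded Pparg in the same way. The neighbours Il4ra and Chil3, Pparg and Clec10a, and each pair below them overlapped in their ranges. Among all tested genes Mrc1 stood at the 91.0 percentile of level, Il4ra at 82.2 and Chil3 at 80.5, whereas Clec10a stood at 22.1. Mrc2, a relative of Mrc1, was listed at 1.81 to 3.82 FPKM, Chil1 at 0.876 to 5.85 FPKM, and Retnlb and Cd163l1 at 0 throughout.

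For the 3 markers with a mean of at least 10 FPKM, the genes whose course over the 6 libraries was nearest were found among 5523 genes of at least that level, by the root mean square difference of log2 values centred on their mean. For Mrc1 they were Itgax (0.0338), Vps26a (0.0373) and Rpl21 (0.0463). For Chil3 they were Fmnl1 (0.0262), 2810474O19Rik (0.0505) and Numa1 (0.0641), and for Il4ra they were Lpl (0.0229), Emp3 (0.0358) and Rps9 (0.0358). Of these genes 263 lay closer to Mrc1 than the SD of Mrc1 itself (0.114 on the log2 scale), 606 closer to Chil3 (0.179) and 227 closer to Il4ra (0.104).

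Marker lists of other cells were read beside the 8 genes, and those of dendritic cells, eosinophils, mast cells and chondrocytes were low. The summed level of the 6 dendritic cell markers was 0.306 to 1.37 FPKM in controls and 0 to 3.00 FPKM after stimulation, with Flt3 and Cd209a at 0. For the 4 eosinophil markers it was 3.95 to 8.11 and 3.14 to 7.98 FPKM, with Epx and Prg2 at 0, and for the 5 mast cell and basophil markers it was 1.07 to 2.14 and 0.650 to 5.48 FPKM. Of 10 chondrocyte markers 9 were found, 4 of them at 0, with sums of 1.54 to 4.22 FPKM in controls and 1.18 to 2.82 FPKM in stimulated libraries. The 5 stromal markers summed to 153 to 165 FPKM in controls and 102 to 117 FPKM after stimulation, and the 7 of 8 neutrophil markers found to 808 to 948 and 755 to 1098 FPKM. Col1a1 and Col1a2 made most of the stromal sum and were lower after stimulation. Dcn had a log2 fold change of 0.28 (limma adjusted p = 0.893), and Pdgfra and Lum were at 0.726 FPKM or less. S100a8 (250 to 454 FPKM) and S100a9 (329 to 502 FPKM) made most of the neutrophil sum, while Elane and Mpo were at 1.88 FPKM or less. The part of stromal cells and neutrophils in the values of the markers was not tested.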

How the data were processed

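RNA-seq of 3 control and 3 stimulated libraries was analysed. Per the labels and the Methods, the authors used TopHat and Bowtie with the mouse build mm10 for paired reads of 100 bp, and Cufflinks for each library. The deposited FPKM are those of Cufflinks, given per transcript, for 34535 reference transcripts and 1453 to 1654 assembled ones per library. The deposited coverage is the mean read depth beside each FPKM. Versions are not given in the sources used here, and whether the TMM step of the Methods touched these values could not be told.

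FPKM were summed per gene symbol, with transcripts assembled at the same Cufflinks gene added. Fragments were estimated as coverage times effective length over read length. The mean fragment length this needs was chosen in each library to bring most low values near whole numbers. Of the values of at most 8 fragments, for longer genes with a single transcript, 95.8% to 96.7% then came within 0.1 of whole numbers. That share is the fitted optimum, so it is no independent check. Intervals on fragments cover counting error only (95%), and a count of 0 allows up to 3 fragments. At this depth a weakly expressed gene has wide intervals. Replicates differed by more than sampling noise (chi-square per gene 1.53 to 1.71), and none was counted as a repeat.

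Stimulated and control libraries were compared in R 4.3.3 with limma 3.58.1 (lmFit, eBayes with trend and robust) on log2(FPKM + 0.1), two-sided, with Benjamini-Hochberg adjustment at 0.05, and on log2 of fragments per depth with an offset of 0.5. An exact permutation test of 3 against 3 libraries cannot go below p = 0.1 and was not used. The limma fits were tested on simulated fragment numbers, with FPKM proportional to them. That simulation held no Cufflinks assembly or division among transcripts, so it does not cover these steps. Similar transcripts were found with blastn 2.17.0 in GENCODE M21, exon numbers were taken from there, and promoters from RefSeq (GRCm38.p6). Python 3.11.15 with pandas 2.3.3, numpy 2.4.6 and scipy 1.17.1 made the tables, and matplotlib 3.10.9 the figures.

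The markers, the lists and the alternatives were chosen with earlier results of these data known. Named by rule were the 8 markers, from each list the genes past the threshold in either fit and the highest one, the 3 nearest genes of each marker at 10 FPKM or more, and paralogs. Other genes were chosen after their values were seen. Columns of bounds and status came with the files, and none of the authors' comparisons was used.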

Additional observations from a re-analysis of the deposited data

How the results depend on the processing

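The markers had 0 calls in every alternative that could test them, 18 for Mrc1, Il4ra, Chil3 and Pparg, 17 for Retnla and Clec10a, and only the one without a filter for Mgl2 and Cd163, and the smallest adjusted p of any marker was 0.627 (limma, Clec10a without control replicate 2). No marker separated the groups with all libraries, and 0 to 2 did with 1 left out: Chil3 (lower) and Clec10a (higher) without control replicate 2, Il4ra (higher) without control replicate 3 and Mrc1 (lower) without stimulated replicate 3. Separation is easier to meet with a library left out. Its share over all tested genes was not computed for those settings, so these counts are no result about the markers. Directions turned for Mrc1 from reference transcripts only (log2 fold change 0.10), for Chil3 without control replicate 3 (0.050, and -0.25 to 0.050 with any 1 library left out), for Pparg without stimulated replicate 2 (0.031, and -0.67 to 0.031) and for Retnla without control replicate 2 or control replicate 3 (-0.83 each) and without stimulated replicate 1 (-1.70, and -1.70 to 1.72). Among list genes they turned for Jak1 with equal totals (-0.0027), quantile normalization (-0.0063) and without control replicate 2 (-0.046) or stimulated replicate 1 (-0.0037), with -0.046 to 0.11 over the libraries left out, for Plin2 (0.21) and Irf5 (0.49) from reference transcripts only, and for Fth1 with status OK only (-0.18). Over all genes 32 were higher and 6 lower. There were 13 higher with plain eBayes, 15 higher from reference transcripts only, 11 lower with status OK only, 170 higher and 89 lower from scaled fragments, and 8 to 27 higher and 0 to 6 lower with 1 library left out. List genes called numbered 7, against 2 with plain eBayes, 3 from reference transcripts only, 16 from scaled fragments and 2 to 5 with 1 library left out. The replicate numbers did not pair the libraries (correlations of same-numbered deviations -0.09, 0.07 and 0.03). A replicate block on that number gave 17 higher and 1 lower genes, 3 list genes and 0 markers. Fabp5, Acsl1, Socs3 and Ccl5 each lost their call with plain eBayes, with the block and from reference transcripts only. The cause of these differences was not tested. The depth recovered from the files limits Retnla, Mgl2, Cd163 and Clec10a, whose groups hold 1 to 13 fragments.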
